A study of Mus musculus with 24 samples.

Results

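The genes described here are 7 that carry the name of neuronal-type genes altered with dystrophin loss: Cdh4, Cntnap2, Dusp26, 0610040J01Rik, Rims4, Pclo and Shisal1, out of 18193 genes that the array annotation names. They were selected on their log2 values in the gastrocnemius, a calf muscle, because those differed with dystrophin loss, so their values in that comparison describe the choice and are given without a test. An array probe set counted as one of theirs when the platform annotation gave it exactly that 1 symbol, which left 15 of 45037 probe sets, and a gene's lead probe set was its brightest on average across the 12 gastrocnemius arrays. All values are log2 intensities unless another scale is named. All animals were male mice aged 2 months, 3 per group, and each gave 1 gastrocnemius and 1 heart array. The mdx mice lack dystrophin and carry the strain label C57BL6/10J, as do the Cmah KO mdx mice, which lack both dystrophin and a working Cmah gene. Cmah KO mice, which lack Cmah alone, and WT mice carry the strain label C57BL/6J. Cmah makes the sialic acid N-glycolylneuraminic acid, which humans lack, and mdx mice model Duchenne muscular dystrophy. Every comparison of dystrophin-deficient with dystrophin-sufficient animals therefore also crosses the strain labels, and strain and dystrophin loss cannot be told apart.

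Several of the genes are best known from neurons. Chemical synapses release transmitter at the active zone, a protein scaffold that docks vesicles: Pclo encodes its giant scaffold piccolo, and Rims4 a short member of the RIM family of active zone proteins. Cntnap2 encodes CASPR2, a neurexin-related membrane protein that gathers potassium channels beside the nodes of myelinated axons, and Cdh4 encodes R-cadherin, a calcium-dependent adhesion molecule first studied in retina. Dusp26 is a dual specificity phosphatase described in brain and neuroendocrine tissue. Skeletal muscle itself holds motor axons, their Schwann cells and the neuromuscular junction, and dystrophic muscle goes through cycles of fibre loss and regeneration.

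Promoter windows were at hand for 3 of the 7 genes, and 4 windows of 300 bases are shown, from 250 bases before to 50 after the start, because these genes span both directions of the muscle values: Pclo read higher and 0610040J01Rik and Cntnap2 lower in dystrophin-deficient gastrocnemius. The sequences are from RefSeq, build GRCm38.p6, all on the + strand and written 5′ to 3′, and capitals mark the E-box CANNTG, the letters recognised by the MyoD family and many other basic helix-loop-helix factors. The windows are Pclo at chr5:14514668-14514967, 0610040J01Rik at chr5:63812245-63812544, and for Cntnap2 a first start at chr6:45059811-45060110 and a second at chr6:47244146-47244445.
Pclo: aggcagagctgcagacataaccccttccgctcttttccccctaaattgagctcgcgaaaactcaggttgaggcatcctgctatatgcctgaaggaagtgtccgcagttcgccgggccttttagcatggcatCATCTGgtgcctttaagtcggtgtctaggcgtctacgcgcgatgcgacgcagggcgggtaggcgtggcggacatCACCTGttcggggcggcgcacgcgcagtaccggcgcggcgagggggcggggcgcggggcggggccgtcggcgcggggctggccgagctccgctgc
0610040J01Rik: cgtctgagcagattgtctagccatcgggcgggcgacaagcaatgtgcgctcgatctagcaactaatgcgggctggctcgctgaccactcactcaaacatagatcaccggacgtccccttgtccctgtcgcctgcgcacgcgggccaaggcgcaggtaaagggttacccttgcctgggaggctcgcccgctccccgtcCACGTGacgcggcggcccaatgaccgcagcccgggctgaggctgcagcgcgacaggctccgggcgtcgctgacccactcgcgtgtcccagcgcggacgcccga
Cntnap2, first start: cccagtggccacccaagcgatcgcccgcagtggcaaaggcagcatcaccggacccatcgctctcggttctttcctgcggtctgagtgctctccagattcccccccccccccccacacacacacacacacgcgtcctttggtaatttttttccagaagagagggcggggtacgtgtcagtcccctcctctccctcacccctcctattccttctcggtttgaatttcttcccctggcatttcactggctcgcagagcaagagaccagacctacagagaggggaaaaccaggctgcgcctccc
Cntnap2, second start: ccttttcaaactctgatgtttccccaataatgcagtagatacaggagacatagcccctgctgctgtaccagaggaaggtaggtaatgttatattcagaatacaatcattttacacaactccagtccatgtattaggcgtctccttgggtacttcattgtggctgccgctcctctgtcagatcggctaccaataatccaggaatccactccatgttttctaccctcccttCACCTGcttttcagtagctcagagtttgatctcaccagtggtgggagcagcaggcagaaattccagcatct
The Pclo window held 2 E-boxes (CATCTG and CACCTG), the 0610040J01Rik window 1 (CACGTG), the first Cntnap2 window 0 and the second 1 (CACCTG). E-boxes on either strand were in 72.3% of 32851 mouse promoter windows of the same length, so 3 of 4 windows with a match is near that share. Both strands were also searched for the MEF2 box (in 3.69% of all windows) and for TATAAA (in 13.6%), and neither was in any of the 4 windows, so no motif overlapped an E-box there.

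The label was first set against its tissue. Dmd, which encodes dystrophin, averaged 8.37 ± 0.28 in mdx and 10.16 ± 0.10 in WT gastrocnemius, and 8.18 ± 0.56 in Cmah KO mdx against 10.15 ± 0.14 in Cmah KO (SD, n = 3). Cmah averaged 7.16 ± 0.85 in Cmah KO mdx against 7.21 ± 0.84 in mdx gastrocnemius, and 6.36 ± 0.56 in Cmah KO against 7.38 ± 0.46 in WT, and whether that probe set lies in the deleted stretch is not given in the sources used here. All 5 fast-fibre markers read above the 40th percentile of their tissue in every gastrocnemius group, and all 4 cardiomyocyte markers did so in every heart group. The 12 fast-fibre genes summed to 802 to 29499 on the linear scale in the heart arrays and to 116190 to 148105 in the gastrocnemius arrays, and their part in the heart values was not tested. Myh6, the cardiac alpha myosin gene, varied widely between gastrocnemius arrays, at 7.63 ± 0.93 in mdx and 6.71 ± 3.01 in WT, and at 6.38 ± 2.29 in Cmah KO mdx and 7.45 ± 3.46 in Cmah KO (SD, n = 3), and its part in the muscle values was not tested. Of 11 neuron markers, 5 were above the 40th percentile in Cmah KO mdx gastrocnemius and 4 in each of mdx, Cmah KO and WT. Rbfox3, Map2, Stmn2 and Uchl1 were above it in all 4 gastrocnemius groups, and Chat, Gap43, Prph and the neurofilament genes Nefl, Nefm and Nefh were below it in all 4. All 4 Schwann cell markers (Mbp, Pmp22, Sox10 and S100b) were above it in every gastrocnemius group. The label neuronal-type is used here for what some of the genes are known for, and the nerve content of the samples was not tested. In whole tissue, fewer cells of a type and less RNA per cell cannot be told apart.

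Some arrays stood apart. In the gastrocnemius of 4 animals, 1 of each genotype, the middle beta-actin control probe set read 7.84 to 8.85, against 11.26 to 12.07 in the other 8 animals. In the hearts of the same 4 animals it read 8.29 to 8.96, against 10.75 to 11.35 in 6 of the other 8. The heart arrays Cmah KO mdx replicate 2 and Cmah KO replicate 3 had a log2 gap between the Gapdh controls at the transcript's 3' and 5' ends, a sign of RNA quality, of 4.43 and 4.29, against 0.44 to 1.60 in the other 10 heart arrays, and these 2 read the actin probe set at 8.77 and 7.43. Over all 13057 genes tested in heart the median difference was -0.44 between Cmah KO and WT and 0.31 between Cmah KO mdx and Cmah KO, and without these 2 arrays it was 0.02 and -0.02. The heart differences of Cdh4, Cntnap2 and Dusp26 that rest on these arrays are also given without them.

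In gastrocnemius 5 of the 7 genes read lower and 2 read higher in dystrophin-deficient muscle. Between mdx and WT, 2 genes were higher and 4 lower without overlap of the groups, where 3.54% and 2.75% of all tested probe sets were, and 0.0169% had an adjusted p below 0.05 in limma, with Benjamini-Hochberg adjustment. Between Cmah KO mdx and Cmah KO, 2 were higher and 5 lower without overlap, where 7.27% and 5.18% of all were, and 0.112% passed. These shares are given as background only, because the same contrasts chose the genes. These 2 comparisons share no arrays, and the values of each are given side by side.

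Cdh4 (lead probe set 1456397_at) had the smallest SE of the 7 genes. It read 4.96, 4.71 and 4.85 in mdx, against 7.78, 8.10 and 7.79 in WT gastrocnemius. It read 5.14, 4.95 and 5.45 in Cmah KO mdx, against 8.70, 7.99 and 8.39 in Cmah KO. The 6 dystrophin-deficient arrays lay below all 6 others, with a difference of -3.05 ± 0.27 (SE from limma), or 8.28-fold lower, between mdx and WT, and of -3.18 ± 0.27, or 9.09-fold lower, between Cmah KO mdx and Cmah KO. The order of the groups was Cmah KO, WT, Cmah KO mdx and mdx from high to low, with overlap between Cmah KO and WT and between Cmah KO mdx and mdx. Within the 4 animals of low actin control the mdx minus WT difference was -2.83, and in the other 8 animals it was -3.16. The corresponding values for Cmah KO mdx minus Cmah KO were -3.56 and -2.99.

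Dusp26 (1425848_a_at), the phosphatase, had the largest mean difference of the 7 in the Cmah KO background. It read 6.48, 7.63 and 6.89 in mdx, against 9.80, 9.92 and 9.71 in WT. It read 6.95, 5.60 and 6.64 in Cmah KO mdx, against 9.32, 10.06 and 9.64 in Cmah KO. The lowest dystrophin-sufficient array (9.32) was above the highest dystrophin-deficient one (7.63), and the differences were -2.81 ± 0.40 for mdx against WT and -3.27 ± 0.40 for Cmah KO mdx against Cmah KO. The second of these was -2.37 within the 4 animals of low actin control and -3.73 in the other 8.

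Cntnap2 (1422798_at), the CASPR2 gene, had the largest SE of the 7. It read 7.61, 8.27 and 6.34 in mdx, against 9.34, 10.29 and 9.82 in WT. It read 8.05, 8.21 and 8.43 in Cmah KO mdx, against 9.29, 10.13 and 9.57 in Cmah KO. Neither pair of groups overlapped, and the differences were -2.41 ± 0.45 and -1.43 ± 0.45. The mdx arrays alone spanned 6.34 to 8.27, with replicate 3 the lowest.

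0610040J01Rik (1424404_at), a symbol for a RIKEN cDNA for which no role is given here, followed the same order. It read 4.75, 5.05 and 4.93 in mdx, against 6.95, 7.24 and 6.63 in WT. It read 4.65, 5.58 and 5.13 in Cmah KO mdx, against 7.75, 8.02 and 7.77 in Cmah KO. The pairs did not overlap, and the differences were -2.03 ± 0.29 and -2.73 ± 0.29. Every Cmah KO array of this gene also lay above every WT array.

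Rims4 (1436564_at), the short RIM-family gene, read near or below the 40th percentile of the gastrocnemius values, 4.66. It read 3.61, 3.31 and 4.27 in mdx, against 4.09, 4.54 and 4.29 in WT, and those 2 groups overlapped. It read 3.30, 3.28 and 3.27 in Cmah KO mdx, against 4.78, 5.09 and 5.04 in Cmah KO. The difference was -0.58 ± 0.29 in the first pair and -1.68 ± 0.29 in the second, which did not overlap. Of its 12 arrays, only the 3 of Cmah KO lay above the percentile, so the gene passed the filter on low values, at least 3 of 12 arrays above it, through that group alone.

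Pclo and Shisal1 read higher in dystrophin-deficient muscle. Pclo (1419392_at) read 6.53, 5.88 and 6.13 in mdx, against 3.60, 3.35 and 3.32 in WT. It read 5.54, 5.59 and 5.86 in Cmah KO mdx, against 4.10, 3.54 and 3.32 in Cmah KO. Its dystrophin-sufficient arrays were all below the 40th percentile, and the differences were 2.76 ± 0.29 and 2.01 ± 0.29. Shisal1 (1429440_at), a relative of the Shisa membrane proteins, read 7.86, 7.60 and 7.95 in mdx, against 4.87, 6.16 and 5.89 in WT, with 7.47, 7.34 and 7.96 in Cmah KO mdx against 5.35, 5.49 and 5.52 in Cmah KO. The 6 dystrophin-deficient arrays were above all others, and the differences were 2.16 ± 0.34 and 2.14 ± 0.34. Within the 4 animals of low actin control, Pclo differed by 3.21 between mdx and WT and by 1.44 between Cmah KO mdx and Cmah KO, against 2.53 and 2.29 in the other 8 animals.

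**Figure D1:**
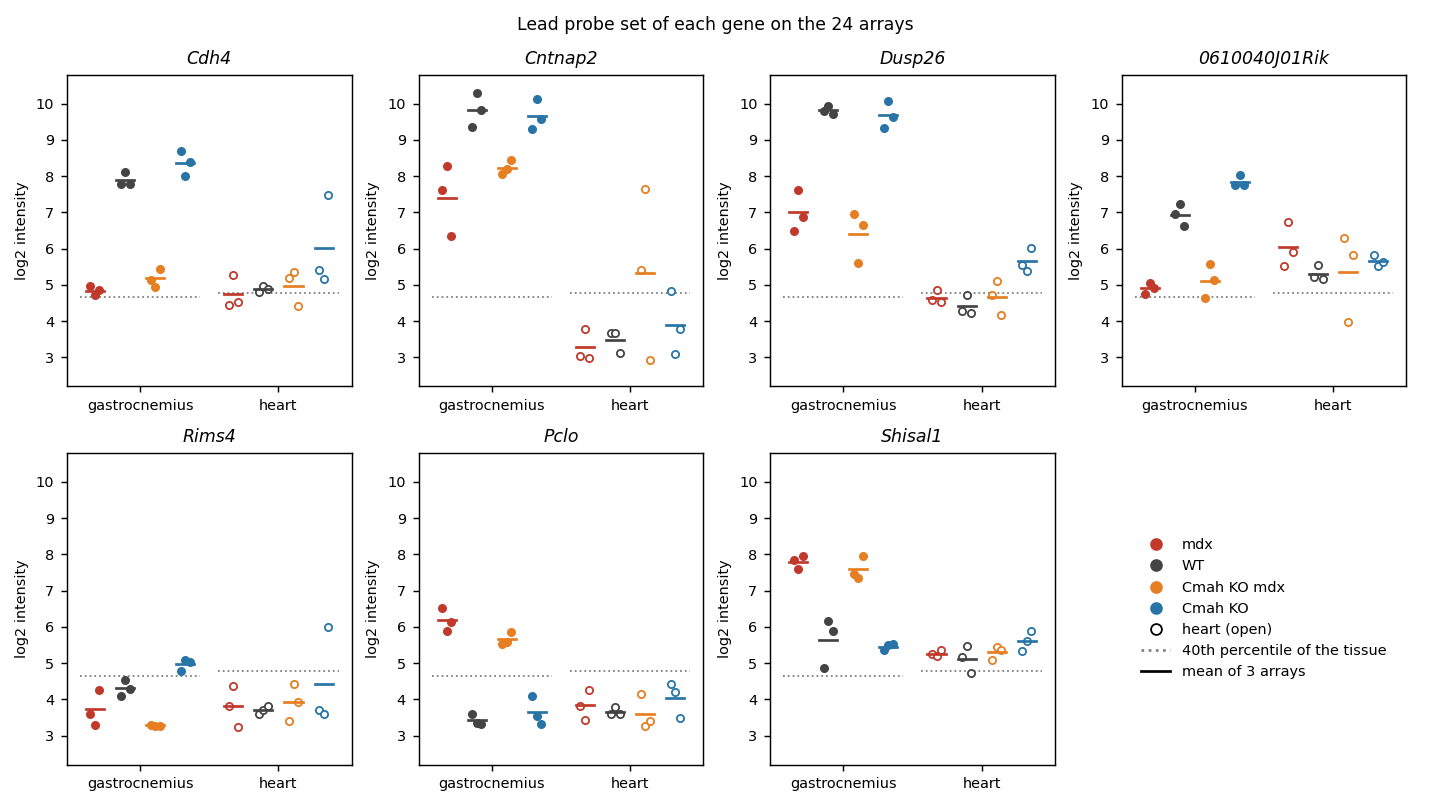
Log2 intensity of the lead probe set of each gene on each of the 24 arrays, filled points for gastrocnemius and open points for heart, with a bar at the mean of the 3 arrays of a group and a dotted line at the 40th percentile of the tissue (4.66 in gastrocnemius, 4.78 in heart). In gastrocnemius Cdh4 lies at 4.71 to 5.45 in dystrophin-deficient animals and at 7.78 to 8.70 in the others, and Pclo lies at 5.54 to 6.53 and at 3.32 to 4.10.

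The other probe sets of these genes did not all follow the lead. Of the 15 probe sets, 11 passed the filter on low values in gastrocnemius and 7 in heart, and the rest had too little signal to be tested. Cdh4 had 2 more: 1 read 2.95, 4.47 and 4.19 in mdx, against 6.16, 7.40 and 7.04 in WT, a difference of -2.99 ± 0.55 without overlap, and the other overlapped (difference -1.42 ± 0.55), although without overlap between Cmah KO mdx and Cmah KO (-1.10 ± 0.55). Shisal1 had 1 more, with differences of 2.64 for mdx against WT and 2.83 for Cmah KO mdx against Cmah KO, both without overlap. The second probe set of Rims4 and the other 2 of Pclo did not pass the filter, and their differences between mdx and WT were -0.31, 0.17 and 0.19. The Cntnap2 probe set that passed besides the lead differed by -1.38 ± 0.82 and -0.10 ± 0.82 and overlapped in both pairs, and the third, below the filter, was lower without overlap in both, by -0.74 and -1.38. So the higher value of Pclo and the lower value of Rims4 each rest on 1 probe set, whereas Cdh4 and Shisal1 each had 2 without overlap between mdx and WT. Dusp26 and 0610040J01Rik have only 1 probe set each, so their lower values could not be compared with another.

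**Figure D2:**
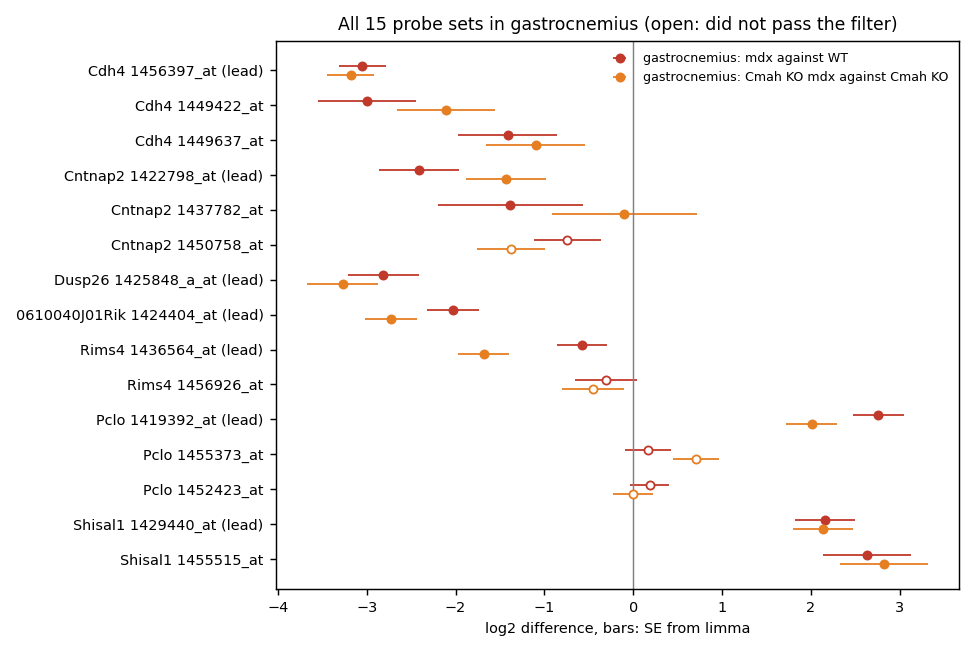
Log2 difference with its limma SE for all 15 probe sets of the 7 genes in gastrocnemius, for mdx against WT and for Cmah KO mdx against Cmah KO, with open points for probe sets that did not pass the filter on low values. The second Shisal1 probe set lies at 2.64 and 2.83, beside its lead at 2.16 and 2.14, while the other Pclo probe sets stay between -0.003 and 0.71.

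The heart was not used to choose the genes, so its arrays can be tested, although dystrophin loss and strain label are joined there too. In heart 5 of the 7 passed the filter, and Rims4 and Pclo were not tested. Cdh4, Dusp26, Shisal1 and 0610040J01Rik did not pass limma's test in mdx against WT (adjusted p 1.00 for each). Nor did Cdh4, Shisal1 and 0610040J01Rik in Cmah KO mdx against Cmah KO. Cntnap2 in both and Dusp26 in the second carry no p, because of the arrays through which they passed the filter, given below. In each comparison 0% of all tested probe sets passed. At an unadjusted p below 0.05, 103 and 568 probe sets did. The fit pooled the spread of all heart groups, so the arrays of wide Gapdh gap also entered the p and intervals of mdx against WT. Without those arrays 714 probe sets had an unadjusted p below 0.05 for mdx against WT. With mdx and WT fitted alone 749 did, and in both settings 0 passed after adjustment. The 5 differences between mdx and WT ran from -0.21 to 0.74, and none of the 7 genes was without overlap between mdx and WT, where 7.37% of all tested probe sets were.

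Cdh4 in heart read 4.44, 5.27 and 4.52 in mdx, against 4.82, 4.98 and 4.89 in WT, a difference of -0.15 with a 95% interval of -1.43 to 1.13. That interval draws on the spread of all heart groups. The SD of Cdh4 was 1.28 in Cmah KO, 0.50 in Cmah KO mdx, 0.46 in mdx and 0.08 in WT hearts. Dusp26 read 4.58, 4.86 and 4.52 in mdx, against 4.27, 4.71 and 4.24 in WT, a difference of 0.25 (interval -0.63 to 1.12). Shisal1 read 5.24, 5.19 and 5.35 in mdx, against 5.17, 5.47 and 4.72 in WT, a difference of 0.14 (interval -0.68 to 0.96). The groups overlapped for all 3 of these genes, and the difference between the tissues was not tested because the gastrocnemius values chose the genes. Dusp26 lay below the heart's 40th percentile in 3 of 3 WT and 2 of 3 mdx arrays. Cdh4 lay below it in 2 of 3 mdx arrays and just above it in WT. From such low levels a fall as large as in gastrocnemius could not show for these genes. 0610040J01Rik read 5.53, 6.74 and 5.90 in mdx, against 5.22, 5.54 and 5.16 in WT, a difference of 0.74 (interval -0.50 to 1.99). Cntnap2 read 3.04, 3.79 and 2.99 in mdx, against 3.67, 3.67 and 3.11 in WT, all below the heart's 40th percentile of 4.78, a difference of -0.21. It passed the filter through 3 arrays, 2 of Cmah KO mdx and 1 of Cmah KO.

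In the Cmah KO background the heart values were wider. Dusp26 read 4.73, 5.11 and 4.17 in Cmah KO mdx, against 5.55, 5.38 and 6.01 in Cmah KO. The groups did not overlap, the only such case among the 7 genes, where 1.49% of all probe sets were lower without overlap. The difference was -0.98, and it was -1.02 without the 2 arrays of wide Gapdh gap, -0.82 within the 4 animals of low actin control and -1.05 in the other 8. Of its 5 heart arrays above the percentile 3 were the Cmah KO arrays, without which the gene would not have passed the filter. Its difference therefore carries no p here. All 12 fast-fibre genes, markers of the muscle in which Dusp26 read 9.71 to 9.92 in WT, were lower in the same comparison, with a median of -2.56, and of -1.37 without those 2 arrays, and their summed level was 802 to 16423 in Cmah KO mdx against 11845 to 21593 in Cmah KO hearts. Their part in the Dusp26 values was not tested. Cdh4 read 5.18, 5.35 and 4.42 in Cmah KO mdx, against 5.41, 5.16 and 7.49 in Cmah KO, and the array at 7.49 is one of the 2 with the wide Gapdh difference. Its difference was -1.04 ± 0.59, and -0.48 without both arrays. Cntnap2 read 5.40, 7.65 and 2.93 in Cmah KO mdx, against 4.83, 3.10 and 3.77 in Cmah KO, and its array at 7.65 is the other. Its difference was 1.43, and 0.20 without both. Without those 2 arrays Cdh4, Shisal1 and 0610040J01Rik did not pass either.

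**Figure D3:**
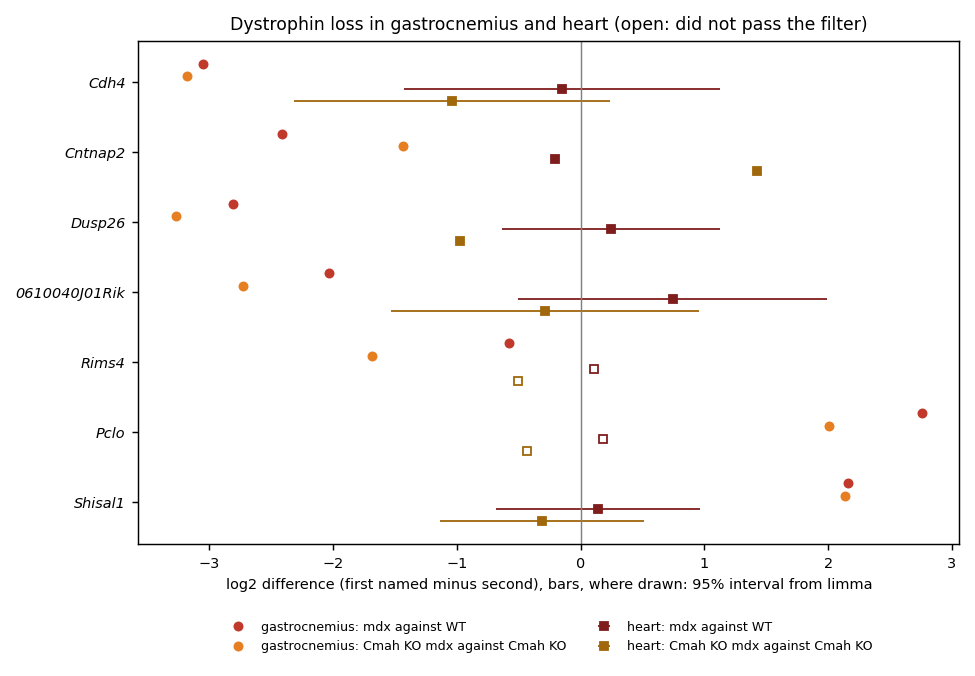
Log2 difference for the lead probe set of each gene, mdx against WT and Cmah KO mdx against Cmah KO, in gastrocnemius (circles, without intervals because these values chose the genes) and heart (squares). Bars are 95% limma intervals, left out where the gene passed the filter only through the higher group or both groups lay below the percentile, and open symbols mark genes that did not pass. In gastrocnemius the differences of Cdh4 lie at -3.05 and -3.18, and in heart at -0.15 and -1.04.

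Set against the gastrocnemius of the same animals, the heart levels show how the tissues stand apart. In mdx, Cdh4 differed by -0.10 ± 0.38 and in WT by -3.29 to -2.81 (heart minus gastrocnemius, mean ± SD or range, n = 3 animals). Cntnap2 differed by -4.13 ± 1.02 in mdx and by -6.33 ± 0.25 in WT, and Dusp26 by -2.35 ± 0.74 and by -5.40 ± 0.35. For these 3 genes the heart was lower in all 3 WT animals. Pclo differed by -2.34 ± 0.73 in mdx and by 0.24 ± 0.24 in WT, and Shisal1 by -2.54 ± 0.26 and by -0.52 ± 0.43. 0610040J01Rik was higher in heart in all 3 mdx animals, by 1.15 ± 0.74, and lower in heart in all 3 WT animals, with -1.63 ± 0.48. Rims4 differed by 0.08 ± 0.61 in mdx and by -0.60 ± 0.33 in WT. These are descriptions, since the gastrocnemius arrays chose the genes.

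Loss of Cmah was not what the genes were picked for, but its comparisons share arrays with those that were. In gastrocnemius no gene of the 7 that is given a test passed limma in Cmah KO mdx against mdx or in Cmah KO against WT (adjusted p 1.00 for each). Rims4 in both is given without a test, and so is Pclo in the second, where all its arrays lay below the 40th percentile. Of all 29518 tested probe sets 0.00339% and 0% passed, with 274 and 332 at an unadjusted p below 0.05. With the replicate number as a block the first comparison called 3 probe sets in place of 1. 0610040J01Rik was higher in Cmah KO than in WT in 3 of 3 arrays, by 0.91 ± 0.29. The arrays of both groups also entered the contrasts that chose the gene, so this difference is a description. In Cmah KO mdx against mdx it differed by 0.21 ± 0.29. Rims4 stood 0.66 above WT in Cmah KO, the group through which alone it passed the filter, and -0.44 from mdx in Cmah KO mdx, both without overlap, and its second probe set, below the filter, gave 0.16 and 0.01. All its WT, mdx and Cmah KO mdx arrays lay below the 40th percentile, so these differences carry no p here. Pclo in Cmah KO mdx was below every mdx array, with a difference of -0.52 ± 0.29. Between Cmah KO and WT, 2 of 7 genes were higher without overlap, where 1.78% of all probe sets were, and between Cmah KO mdx and mdx 2 were lower, where 1.54% were. Rims4 is in both counts, and all these arrays helped choose the genes. The shares are therefore background only, and nothing is drawn from the counts. Cntnap2 was 0.82 ± 0.45 higher in Cmah KO mdx than in mdx, with overlap.

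In heart, Dusp26 read 5.55, 5.38 and 6.01 in Cmah KO, against 4.27, 4.71 and 4.24 in WT, without overlap. All 3 WT arrays lay below the percentile and the Cmah KO arrays above it. The difference was 1.24, and it carries no p here, because without the Cmah KO arrays the gene would not have passed the filter. Over the alternatives the difference ran from 1.06, the value without the wide Gapdh gap, to 1.44. It was 0.84 within the 4 animals of low actin control. Beside it, 9 of 12 fast-fibre genes were higher (median 0.68) and 14 of 14 macrophage genes lower (median -1.20), where 3742 of all 13057 genes were higher and 9315 lower. Without the 2 arrays of wide Gapdh gap those medians were 0.35 and -0.50, and their part in the values was not tested. Cdh4 was higher in Cmah KO than in WT by 1.13 ± 0.59, also without overlap, but over the alternatives at this probe set it ran from 0.39 to 1.60, and the 0.39 is the value without the array at 7.49. Cntnap2 in Cmah KO mdx averaged 2.06 above mdx, whose arrays were all below the percentile. This difference carries no p here, because 2 of the 3 arrays through which the gene passed the filter were of Cmah KO mdx. Without the array at 7.65 the difference was 0.89, and 1 of its 3 Cmah KO mdx arrays was below all 3 mdx arrays. Cntnap2, and Dusp26 between Cmah KO and WT, are left out of the calls that follow. None of the rest of the 5 genes passed in either Cmah comparison in heart, where 0% of all tested probe sets passed. At an unadjusted p below 0.05, 464 of 29421 probe sets did for Cmah KO mdx against mdx and 250 for Cmah KO against WT. Between Cmah KO and WT, 2 of 7 genes, Cdh4 and Dusp26, were higher without overlap, where 1.89% of all tested probe sets were. Dusp26 is in that count although it passed the filter through its high Cmah KO arrays. The 7 also hold Rims4 and Pclo, which did not pass. The share is therefore background only. An interaction term, added after the data were seen, asked whether dystrophin loss differs with Cmah in heart. It called 0 of 29421 probe sets, with 143 at an unadjusted p below 0.05. For Dusp26 it was -1.22, which carries no p here because of the same filter.

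**Figure D4:**
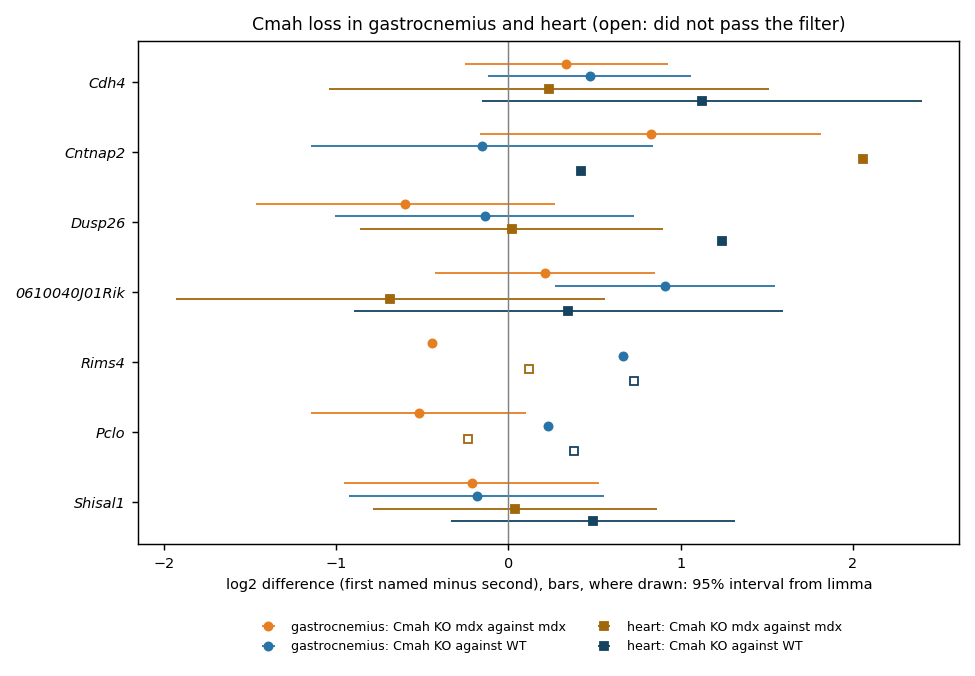
Log2 difference for the lead probe set of each gene, Cmah KO mdx against mdx and Cmah KO against WT, in gastrocnemius (circles) and heart (squares), with open symbols where the gene did not pass the filter. Bars are 95% limma intervals, left out where the gene passed only through the higher group or both groups lay below the percentile. 0610040J01Rik lies at 0.91 in gastrocnemius for Cmah KO against WT, and no gene that is given a test passed after adjustment.

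None of the tested genes of the lists built around the members' own families passed in gastrocnemius. Over all 13224 genes tested in gastrocnemius the median difference was 0.02 in both dystrophin comparisons, and 12 lists were counted beside it. Of all these genes 3 passed as higher and 1 as lower between mdx and WT, and 21 and 4 between Cmah KO mdx and Cmah KO. A list in which none passed therefore says little. Of 15 tested genes of the active zone and of vesicle release, which Pclo and Rims4 belong to by role, none passed in either comparison, with medians of 0.17 and 0.12. Ppfia4, which encodes liprin-alpha-4, differed by 1.28 ± 0.35 between mdx and WT and by 2.08 ± 0.35 (adjusted p = 0.0543, limma) between Cmah KO mdx and Cmah KO. Of 5 tested genes of the neurexin and contactin list none passed, with medians of -0.48 and -0.25. That list holds relatives of Cntnap2 and also potassium channel genes, so its medians are not of the family alone. The potassium channel genes Kcna1 and Kcna2 of that list differed by -1.07 ± 0.43 and -0.99 ± 0.45 between mdx and WT.

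Of 13 cadherins and catenins, the kin of Cdh4, none passed (medians 0.23 and 0.14), and Cdh11 differed by 1.51 ± 0.37 between Cmah KO mdx and Cmah KO. Of 22 dual specificity phosphatases none passed (medians -0.01 and -0.01), and of 6 Shisa genes none passed (medians 0.04 and -0.08). Dusp8 differed by -0.92 ± 0.42 and -1.05 ± 0.42, and Shisa3 by -0.84 ± 0.41 and -0.90 ± 0.41. The genes named from these lists are among the 2 with the smallest p in each.

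Markers of nerve and of dystrophic muscle were counted beside the members. Of 7 tested neuron markers none passed (medians 0.01 and 0.30), and Uchl1, a ubiquitin hydrolase of neurons, differed by 1.35 ± 0.31 and 1.13 ± 0.31. Of these 7, 4 were higher and 3 lower between mdx and WT, and 5 and 2 between Cmah KO mdx and Cmah KO. The 15 neuron genes summed to 763 to 947 in mdx against 513 to 775 in WT, and to 888 to 1060 in Cmah KO mdx against 581 to 763 in Cmah KO, on the linear scale. Such a sum weighs bright genes most. Uchl1 averaged 8.11 in mdx, 6.76 in WT, 8.34 in Cmah KO mdx and 7.22 in Cmah KO, and its part in the sums was not tested. In each group 9 or 10 of the 15 averaged below the 40th percentile. Of 10 tested Schwann cell genes none passed (medians -0.18 and -0.07), with 4 higher and 6 lower in each comparison. The markers Mbp, Pmp22, Sox10 and S100b averaged lower in both. The 12 Schwann cell genes on the array summed to 6411 to 6938 in mdx against 6111 to 7903 in WT. In Cmah KO mdx they summed to 5884 to 7635, against 6837 to 8168 in Cmah KO, and both pairs overlapped. Pmp22, a bright gene of these, averaged 11.86 in mdx and 12.01 in WT. The 18 neuromuscular junction and denervation genes had medians of 0.64 and 0.55, with 17 and 14 genes higher and 1 and 4 lower. Their summed levels did not overlap, at 11692 to 16109 in mdx against 7335 to 9321 in WT. In Cmah KO mdx they were 11233 to 16160, against 7347 to 9722 in Cmah KO. Of these genes 0 and 1 passed, that 1 being Runx1, a transcription factor raised in denervated muscle. Runx1 rose by 2.23 ± 0.33 in Cmah KO mdx against Cmah KO (adjusted p = 0.0339, limma). Its adjusted p was 0.107 without the 4 animals of low actin control, with a difference of 2.49.

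Of 12 regenerating muscle genes, the embryonic myosin gene Myh3 and the neonatal myosin gene Myh8 rose in both comparisons, and the fusion gene Mymk rose between Cmah KO mdx and Cmah KO, with medians of the list of 2.06 and 2.23. The Myh3 difference was 3.18 ± 0.40 and 4.23 ± 0.40 and that of Myh8 4.04 ± 0.53 and 4.65 ± 0.53. With 1 array left out in turn, Myh3 passed in 0 of 6 repeats for mdx against WT and in 6 of 6 for Cmah KO mdx against Cmah KO, and Myh8 passed in 2 of 6 in each, while over all alternatives both differed by at least 2.85. All 12 genes of the list together summed to 17591 to 27327 in mdx against 10093 to 12088 in WT. In Cmah KO mdx they summed to 19098 to 29819, against 8056 to 11099 in Cmah KO, and neither pair overlapped. Of 14 macrophage genes Clec7a and Lgals3 rose in Cmah KO mdx against Cmah KO and none passed between mdx and WT, with medians of 1.56 and 2.02. Each of Mymk, Clec7a, Lgals3 and Runx1 passed in 1 of 6 repeats that left out 1 array. The fast-fibre list (12 genes) had medians of 0.04 and -0.0035 and the cardiomyocyte list (9 genes) of 0.14 and -0.39, with none passed. The levels of Pclo and Shisal1 stood higher in the arrays where these regeneration and macrophage sums did too, and their part in these values was not tested. No gene of any list passed in heart.

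**Figure D5:**
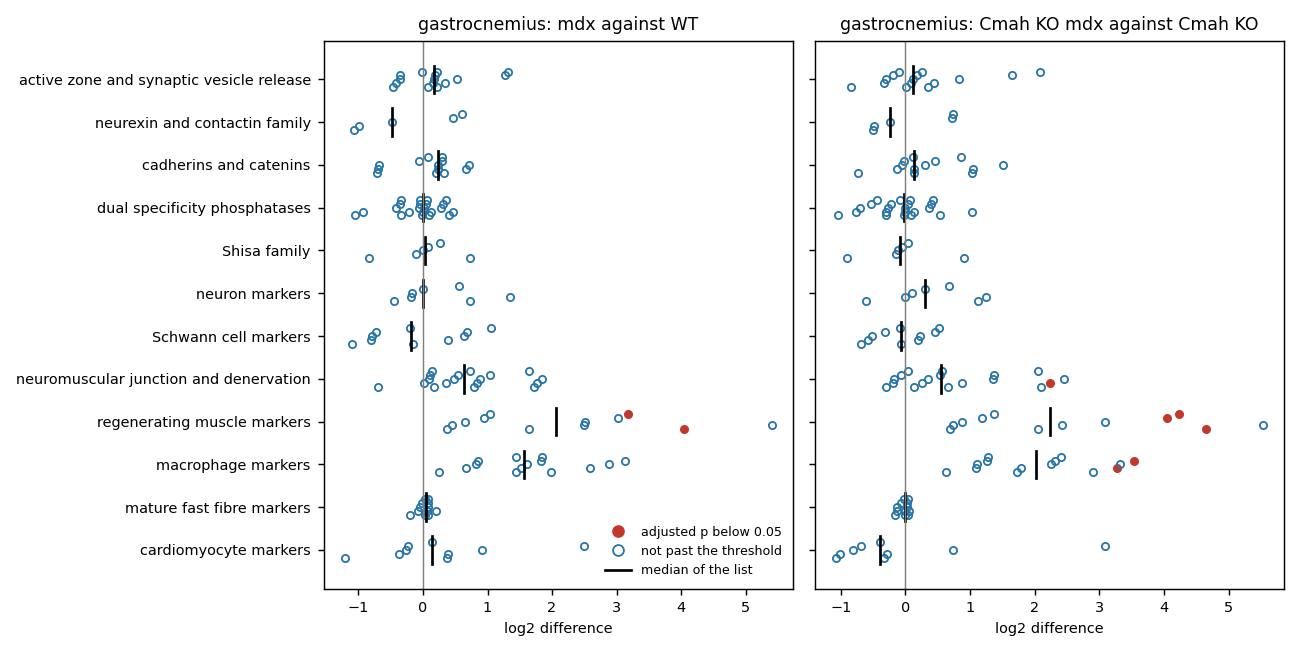
Log2 difference of every tested gene of 12 lists in gastrocnemius, for mdx against WT (left) and for Cmah KO mdx against Cmah KO (right), with a bar at the median of each list and filled points for genes with an adjusted p below 0.05. The bar of the regenerating muscle list lies at 2.06 and 2.23, and those of the active zone list at 0.17 and 0.12.

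For each gene the 3 genes of most similar pattern were sought by Pearson's r over the 12 gastrocnemius arrays, which hold the same 4 groups and so share the group differences. Cdh4 was closest to Sorl1 (r = 0.971), Ugt8a (0.944) and Egln3 (0.935), and Dusp26 to Aqp4 (0.945), Map2k6 (0.926) and Sorl1 (0.923). Cntnap2 was closest to Ugt8a (0.914), Zfp982 (0.890) and Kcnk1 (0.889), and 0610040J01Rik to Eif1ax and Otub2 (both 0.947) and Zbed4 (0.940). Pclo was closest to Myh8 (0.922), Gxylt2 (0.919) and Myh3 (0.918), and Shisal1 to Myh8 (0.943), Runx1 (0.939) and Fbln7 (0.938). Rims4 was closest to Lactb2 (0.904), Ado (0.897) and Tst (0.891). Of 42 genes that neighbour the 7 on the genome, 3 on each side of each, 27 were tested and none passed in either comparison, where 0.0169% and 0.112% of all probe sets did, so the count says little. Their medians were 0.12 and 0.22. The groups of 1 neighbour did not overlap: Ada, adenosine deaminase, near Rims4, was 2.39 higher in Cmah KO mdx than in Cmah KO (adjusted p = 0.449, limma) and 0.12 higher in mdx than in WT with overlap, and it is named after its values were seen. The 7 genes lie on chromosomes 2 (Cdh4 and Rims4), 5 (Pclo and 0610040J01Rik), 6 (Cntnap2), 8 (Dusp26) and 15 (Shisal1).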

How the data were processed

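Total RNA of 24 tissue samples (12 animals, 25 ng each, NuGEN Ovation labelling per the labels' protocols) was hybridised to Affymetrix mouse arrays. The authors deposited linear intensity values for 45101 probe sets, made with GCOS and RMA per the submitters' processing notes, with no version given; the number of arrays limits the precision. After 64 controls were dropped, log2 was taken. The platform annotation names 1 gene for 34945 probe sets, more than 1 for 932 and no gene for 9160.

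In each tissue, probe sets with at least 3 of 12 arrays above the 40th percentile were fitted with limma 3.58.1 (R 4.3.3) on 4 group means. Tests were two-sided with Benjamini-Hochberg adjustment over all tested probe sets. The code was tested on simulated data. The 7 genes, the 12 lists and the naming rules were chosen with earlier results of these data known. From a list the rule named up to 4 genes past the threshold, or the 2 of smallest p, and not all are printed. Labels do not say whether animals of a group were littermates, so p-values measure the spread between these samples. Same-numbered samples deviated together in every pair only for Cmah KO mdx and mdx gastrocnemius (r 0.61, 0.17 and 0.40). Alternatives covered filter, scaling, weights, blocks, the arrays included and the probe set.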

Additional observations from a re-analysis of the deposited data

Results flagged for a closer look

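Rims4 values lay on opposite sides with Cmah loss in gastrocnemius. Each Cmah KO mdx array lay below every mdx array, a log2 difference of -0.44, whereas each Cmah KO array lay above every WT array, a difference of 0.66. The difference between these 2 effects was not tested, and neither is given a p. All mdx, Cmah KO mdx and WT arrays lay below the 40th percentile of the gastrocnemius, 4.66, and the gene passed the filter on low values through the Cmah KO arrays alone. Its second probe set gave 0.01 and 0.16.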

How the results depend on the processing

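In heart, and in the Cmah comparisons of gastrocnemius, no gene of the 7 that is given a test passed under any alternative. Calls of the 7 genes in the 2 dystrophin comparisons of gastrocnemius, which chose them, are left out. Of the values recomputed, 719 kept direction and side, 15 moved and 38 changed sign, none of them a value that had passed. Probe sets called in gastrocnemius mdx against WT numbered 5, and 8 with quantile normalization, 9 with array weights, 26 with the 4 animals of low actin control set apart as a block (the set block), 2 without those 4 animals, 0 in the 2 groups alone and 1 to 9 with 1 array left out. For Cmah KO mdx against Cmah KO, 33 became 539 with weights, 316 with the set block, 7 without the 4 animals, 2 in the 2 groups alone and 2 to 70 with 1 array left out. For Cmah KO against WT, 0 became 1 with the stricter filter, quantile normalization, weights, the replicate block or the set block, and 0 to 1 with 1 array left out. For Cmah KO mdx against mdx, 1 became 2 with quantile normalization or without the 4 animals, 5 with weights, 3 with the replicate block and 0 to 1 with 1 array left out. Heart counts of 0 became 133 (mdx against WT), 1 (Cmah KO against WT) and 19 (Cmah KO mdx against mdx) with weights. The cause of these shifts was not tested. The replicate block called 4 for mdx against WT and 34 for Cmah KO mdx against Cmah KO, and changed no other call. The set block and the exclusion of its animals were chosen after seeing the data.

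Signs turned as follows, with ranges over 1 array left out. Gastrocnemius Cmah KO against WT: Cdh4 -0.32 (second probe set), Cntnap2 0.036 without the 4 animals, 0.045 and 0.65 (other probe sets) and -0.39 to 0.083, Pclo -0.044 without the 4 animals and -0.26 (another probe set), Dusp26 -0.33 to 0.040, Shisal1 -0.57 to 0.074. Cmah KO mdx against mdx: 0610040J01Rik -0.016 to 0.45, and at other probe sets Rims4 0.011 and Pclo 0.28 and 0.00087. Cmah KO mdx against Cmah KO: Pclo -0.0025 (another probe set). Heart mdx against WT: Cdh4 -0.42 to 0.0039 and 0.16 (another probe set), Shisal1 -0.058 to 0.31 and -0.14 (another probe set). Heart Cmah KO against WT: Cntnap2 -0.047 to 0.82. Heart Cmah KO mdx against mdx: Cntnap2 -0.11 (another probe set), Dusp26 -0.045 with quantile normalization, -0.20 without the 2 deviating arrays and -0.20 to 0.27, 0610040J01Rik 0.25 with weights, 0.012 without the deviating arrays and -1.15 to 0.012, Shisal1 -0.13 with weights, -0.039 without them, -0.39 (another probe set) and -0.039 to 0.15. Heart Cmah KO mdx against Cmah KO: Cntnap2 -0.78 (another probe set), 0610040J01Rik 0.36 with weights, 0.39 without the deviating arrays and -0.76 to 0.41.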
